A study of Mus musculus with 9 samples.

Results

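The 38 genes described here mark ependymal cells and motile cilia. They were listed by function: 4 transcription factors, 5 radial spoke genes, 6 genes of the central apparatus, 3 of dynein arms and their assembly, 7 of axonemal rulers, regulatory complexes and tethers, 6 of microtubule inner proteins, 2 secreted proteins and 5 other genes of ciliated cells. A probe set on the array carried the symbol of 37 of the 38, the level of Cfap44 was not analysed here, and each gene was read from its probe set with the highest mean over the 9 arrays. A filter on dim probe sets left 35 for testing among 13959 tested genes of 18193. The arrays came from the spinal cords of 3 mice of the GAD65-GFP genotype at p6 (postnatal day 6), each cut into an Intermediate, a Ventral and a Dorsal piece (n = 3 arrays per region, paired by animal). In such mice green fluorescent protein follows the gene of a GABA-synthesising enzyme, and all 3 regions shared that genotype and age. The labels mention no treatment, no wild-type littermates and no sorting of fluorescent cells, so the pieces are treated as whole tissue, and the series title places them in a study of dystonia-associated genes and spinal GABAergic circuits. Differences between regions were tested with limma with the animal as a block, adjusted over all tested genes by Benjamini-Hochberg and called at an adjusted p under 0.05.

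Motile cilia are built on an axoneme of doublet microtubules around a central pair. Dynein arms slide the doublets, radial spokes and the central apparatus regulate the sliding, and proteins inside the doublet wall stiffen it. In the spinal cord such cilia are carried by the ependymal cells that line the central canal and move cerebrospinal fluid. The transcription factor Foxj1 drives the genes of motile cilia, together with members of the Rfx family, which bind a palindromic element called the X-box.

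The levels of the genes ranged from clear detection in every region to values that the arrays barely registered. Values are on the log2 scale of the deposited table, whose lowest value of 2.15 is called the floor, and a gene at the floor has only an upper bound. Of the 37 genes with a probe set, 10 averaged above 5 in every region, 13 never passed 3 on any array, and Spag17, Zmynd10 and Ccdc113 stood at the floor on all 9 arrays. More than 1 probe set was present for 13 genes. For Rfx3, Rfx4, Spag16 and Cfap43, every probe set other than the one used stood at the floor on all 9 arrays. Among the 35 tested genes, 15 had 3 tied or floor values within a region, which makes their spread look smaller than it was, and 12 had 9 distinct values above the floor.

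**Figure D1:**
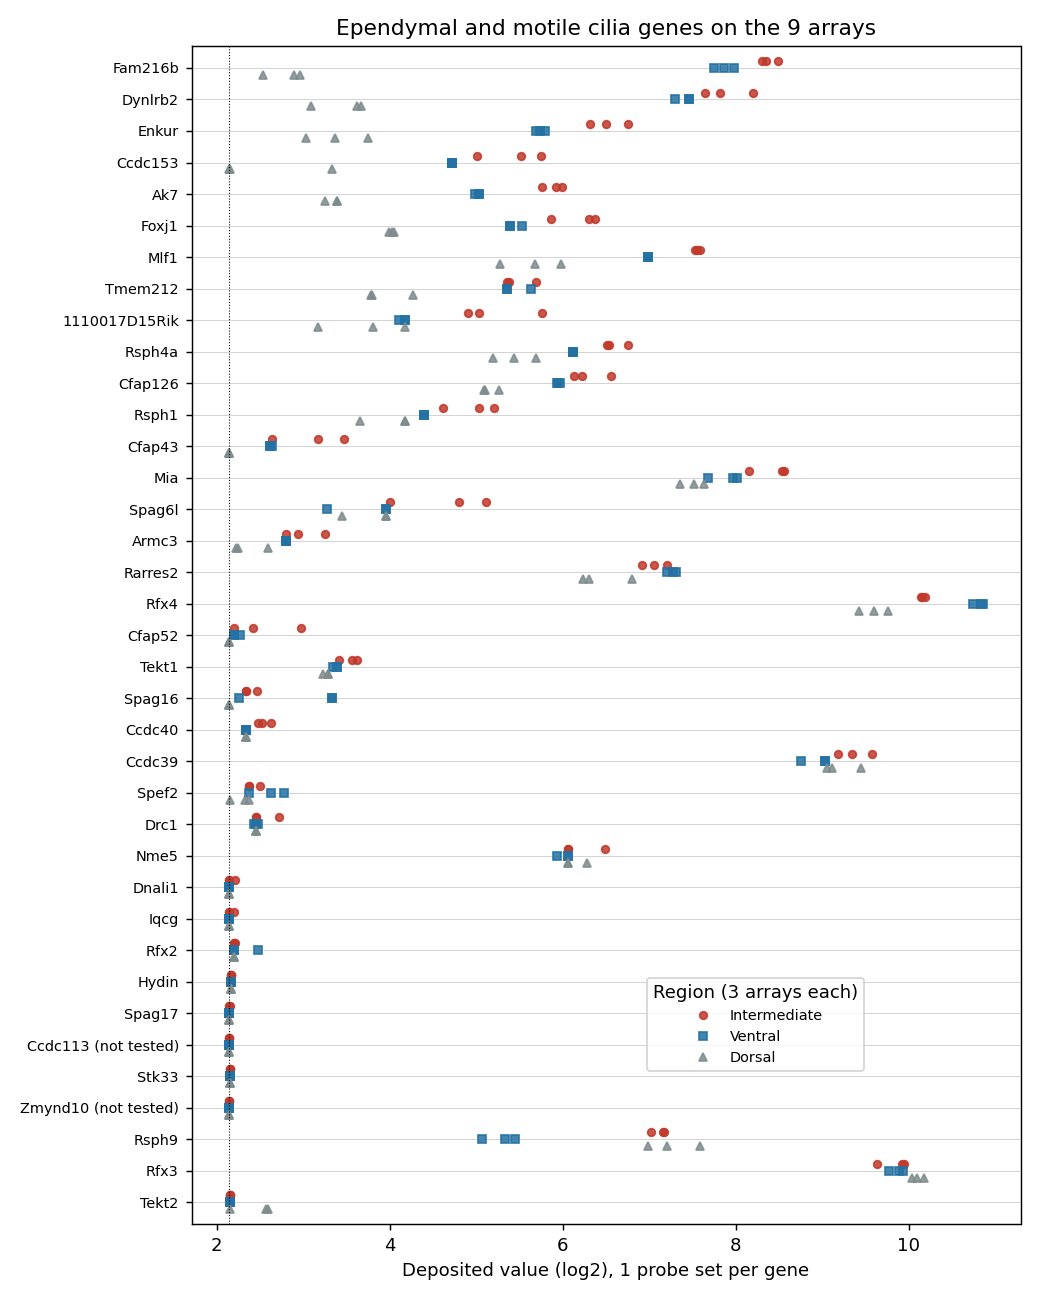
Deposited value on the log2 scale (horizontal axis) of each of the 37 genes with a probe set, by array; red circles are the 3 Intermediate, blue squares the 3 Ventral and grey triangles the 3 Dorsal arrays, and the dotted line is the floor. From Fam216b down to Rsph1, Intermediate arrays lie to the right of Dorsal arrays without overlap, Rfx4 is highest on Ventral arrays, and Rsph9 is lowest on them.

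In Intermediate over Dorsal pieces, 19 of 35 genes were called higher (54.3%) and 0 lower, against 15.9% higher and 14.2% lower among all tested genes. In Intermediate over Ventral pieces, 11 were called higher (31.4%, against 23.4% of all tested genes) and 1, Rfx4, lower (24.9% of all). In Ventral over Dorsal pieces, 12 were called higher (34.3%, against 28.2% of all) and 1, Rsph9, lower (24.5% of all). The share changed in any region by the moderated F test was 57.1%, close to the 58% of all tested genes. The median difference over the 35 was 0.57 for Intermediate minus Dorsal, 0.20 for Intermediate minus Ventral and 0.39 for Ventral minus Dorsal, where the median over all tested genes was 0.00 in each. These 3 comparisons share arrays, so their counts are not independent of each other. In bulk tissue, fewer cells of a type and less RNA per cell cannot be told apart.

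By their order over regions, 12 genes were lower in Dorsal than in both other regions (34.3%, against 10.3% of all tested genes), and 9 were higher in Intermediate than in both others (25.7%, against 6.25%). None was called lowest in Intermediate or highest in Dorsal, patterns of 4.2% and 9.99% of all tested genes. The full order of Intermediate over Ventral over Dorsal, with every step called, held for Ak7, Cfap126, Enkur, Fam216b, Foxj1, Mlf1 and Rsph4a, which are 7 of 35 genes (20%, against 1.39% of all tested genes). A called difference of at least 2-fold was found for 11 genes in Intermediate over Dorsal (31.4%, against 1.6%), for 9 in Ventral over Dorsal (25.7%, against 6.5%) and for 2 in Intermediate over Ventral (5.71%, against 4.99%). At 2-fold the share in Intermediate over Ventral was near that of all genes. Leaving out 1 animal or array at a time gave 9 to 17 genes higher in Intermediate than Dorsal, lowest without animal 1, and 4 to 13 higher in Intermediate than Ventral, lowest without animal 3. Over all tested genes, the same fits gave 765 to 2057 higher in Intermediate than Dorsal, against 2219 with all arrays. They gave 2016 to 3261 higher in Intermediate than Ventral, against 3260 with all arrays. The median of the listed genes for Ventral minus Dorsal fell to 0.24 without animal 1. The number of listed genes higher in Intermediate than in both others ran from 2, without animal 3, to 9. The number lower in Dorsal than in both others ran from 9, without animal 1, to 13. For these 2 patterns the ranges over all tested genes are not given here.

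**Figure D2:**
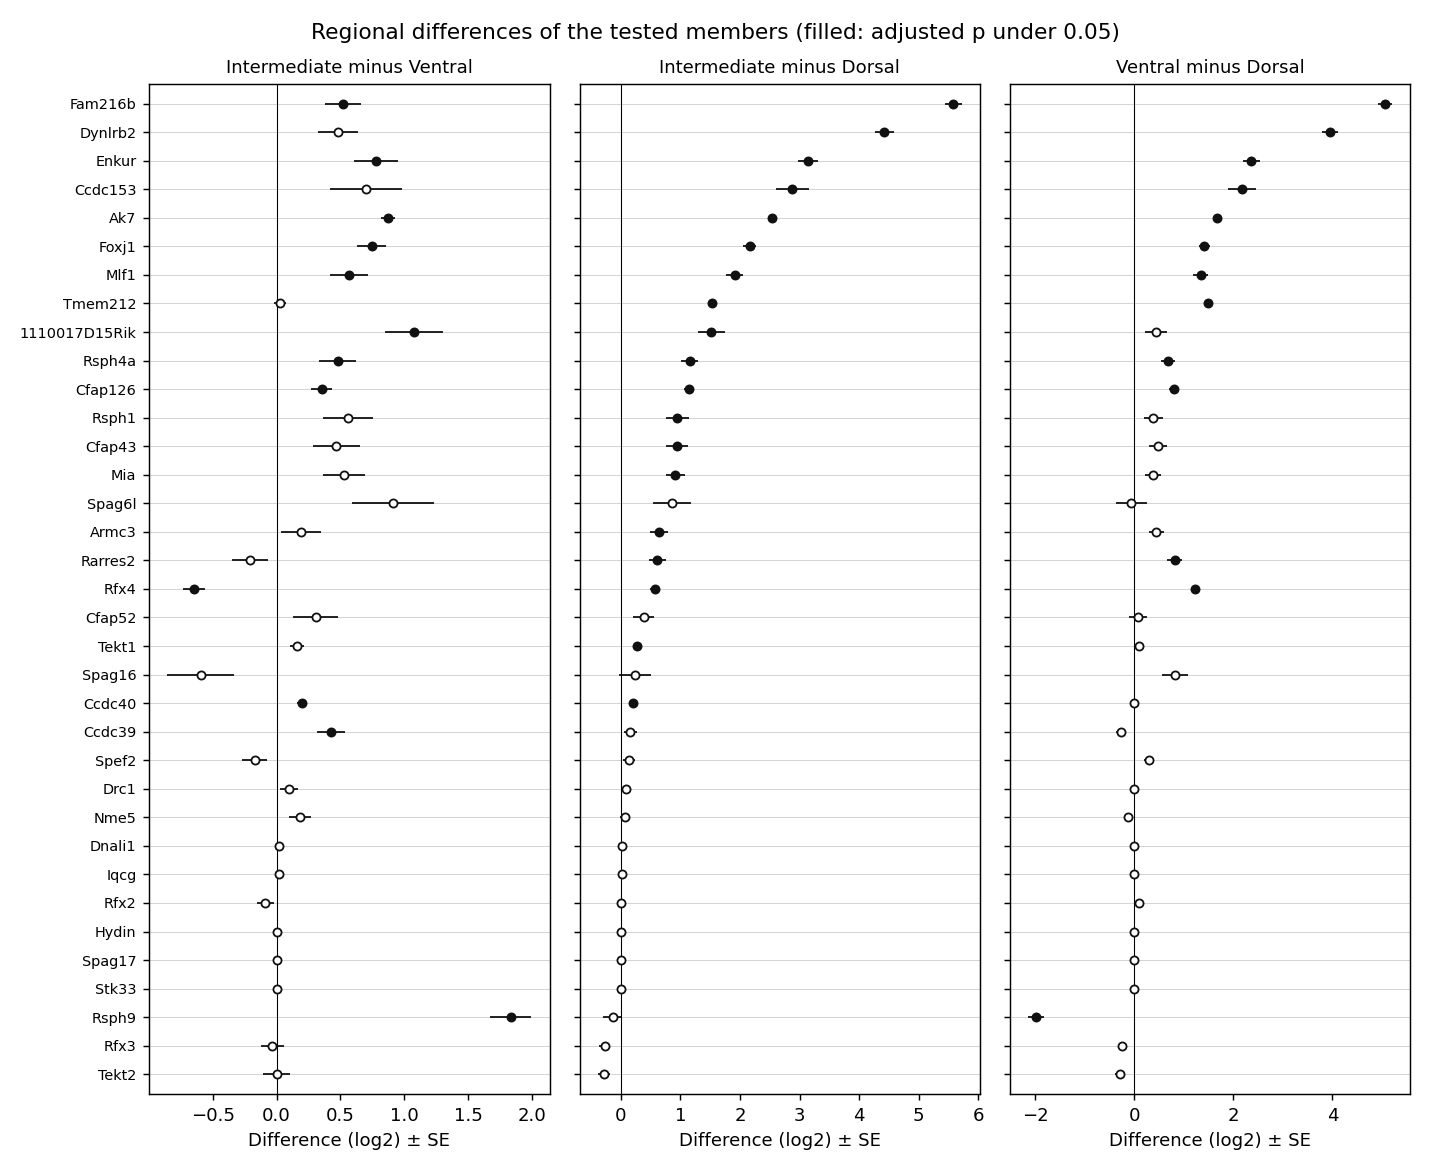
Differences between regions on the log2 scale (horizontal axes, which differ between panels) with their standard errors for the 35 tested genes, from left to right Intermediate minus Ventral, Intermediate minus Dorsal and Ventral minus Dorsal; filled points have an adjusted p under 0.05. The differences from Dorsal reach 5.58 (Fam216b), while those between Intermediate and Ventral run from -0.65 (Rfx4) to 1.83 (Rsph9).

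Foxj1, the regulator of motile ciliogenesis, was highest in Intermediate pieces and lowest in Dorsal pieces. Its values were 5.86, 6.37 and 6.31 on Intermediate arrays, 5.39, 5.39 and 5.53 on Ventral arrays, and 3.99, 4.05 and 4.02 on Dorsal arrays. The 3 regions did not overlap. Foxj1 was 4.47-fold higher in Intermediate than Dorsal pieces (log2 difference 2.16 ± 0.11 SE, adjusted p = 0.00062), 2.66-fold higher in Ventral than in Dorsal (1.41 ± 0.11, adjusted p = 0.000523) and 1.68-fold higher in Intermediate than in Ventral (0.75 ± 0.11, adjusted p = 0.0052). The last of these calls was lost without animal 2 or animal 3, with an adjusted p of up to 0.0799.

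Of the Rfx factors, Rfx4 was called between regions and Rfx3 and Rfx2 were not. Rfx4, which acts in neural tube development and ciliogenesis, had 10.16, 10.15 and 10.19 in Intermediate pieces, 10.86, 10.84 and 10.74 in Ventral pieces, and 9.60, 9.42 and 9.76 in Dorsal pieces. It was thus highest in Ventral, with no overlap between regions. Rfx4 was lower in Intermediate than in Ventral (-0.65 ± 0.09, adjusted p = 0.00316), higher in Intermediate than in Dorsal (0.57 ± 0.09, adjusted p = 0.0088) and 2.33-fold higher in Ventral than in Dorsal (1.22 ± 0.09, adjusted p = 0.000344). Without animal 1, the first 2 of these calls were lost (adjusted p = 0.0664 and 0.112), and without animal 2 the second was lost (adjusted p = 0.0635). It was the only gene of the 35 called highest in Ventral, a pattern of 20.2% of all tested genes. Rfx3, a regulator of ciliary genes in ependyma and elsewhere, had 9.93, 9.94 and 9.63 in Intermediate, 9.94, 9.77 and 9.89 in Ventral, and 10.09, 10.18 and 10.04 in Dorsal pieces. Its Dorsal values were the highest in every animal, but the differences of -0.27 ± 0.09 for Intermediate minus Dorsal and -0.24 ± 0.09 for Ventral minus Dorsal did not pass the test (adjusted p = 0.0868 and 0.0827). Rfx2, known for its part in multiciliated cells, stood between 2.20 and 2.48 on all 9 arrays and was called in no test.

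Promoter sequences were set beside these genes. Of the 35 tested, 19 were called higher in Intermediate than in Dorsal (54.3%, against 15.9% of all tested genes). Another 14 were called in no pairwise test, a count whose share over all tested genes is not given here. By the F test, 57.1% of the 35 changed in some region, close to the 58% of all tested genes. RefSeq windows of GRCm38.p6, 250 bases before to 50 after a start site, were matched by symbol for 32 genes. In the stretches of 150 bases before the start below, capitals mark an X-box palindrome or a looser form of it, both defined after the sequences. Capitals also mark a single X-box arm (GTTGCC) or a forkhead element (GTAAACA, or TGTTTAC on the other strand). 1110017D15Rik is shown for the palindrome and Dynlrb2 for the looser form alone. Mlf1 and Ak7 are shown for the forkhead element, and Fam216b because it differed most between regions. The stretch of Fam216b holds none of these motifs. Their positions are chr8:116504865-116505014 (+ strand, Dynlrb2), chr4:41507765-41507914 (- strand, the second start site of 1110017D15Rik), chr3:67373947-67374096 (+ strand, Mlf1), chr12:105705832-105705981 (+ strand, Ak7) and chr14:78089008-78089157 (- strand, Fam216b).
Dynlrb2: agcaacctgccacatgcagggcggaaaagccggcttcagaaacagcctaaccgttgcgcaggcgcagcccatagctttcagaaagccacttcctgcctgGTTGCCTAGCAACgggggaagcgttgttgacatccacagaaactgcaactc
1110017D15Rik: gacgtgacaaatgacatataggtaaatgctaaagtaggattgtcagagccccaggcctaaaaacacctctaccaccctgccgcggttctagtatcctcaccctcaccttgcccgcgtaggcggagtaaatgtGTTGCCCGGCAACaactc
Mlf1: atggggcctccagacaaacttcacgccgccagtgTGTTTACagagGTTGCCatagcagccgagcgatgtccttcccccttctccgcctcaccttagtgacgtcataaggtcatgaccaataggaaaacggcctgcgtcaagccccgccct
Ak7: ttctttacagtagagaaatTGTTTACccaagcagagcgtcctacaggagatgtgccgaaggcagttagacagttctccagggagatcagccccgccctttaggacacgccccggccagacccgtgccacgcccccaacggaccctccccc
Fam216b: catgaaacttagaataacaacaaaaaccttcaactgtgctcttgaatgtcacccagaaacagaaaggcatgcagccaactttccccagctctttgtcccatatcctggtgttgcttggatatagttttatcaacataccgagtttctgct

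Counted over the whole window and both strands, the single arm GTTGCC was present in 18 of 32 promoters of the listed genes (56.25%), against 14.14% of 27025 genes with a promoter. It was found in 6 of the 15 genes that were called higher in Intermediate than in Dorsal and in 12 of the 17 others, which include Cfap44, Zmynd10 and Ccdc113, 3 genes with the arm that had no test. The palindrome GTTNCC, 0 to 3 bases, GGNAAC was present in 1 listed gene, 1110017D15Rik (3.12%, against 0.94% of genes with a promoter). A looser form, GTTNCC, 0 to 3 bases, GCAAC, was chosen after the sequences had been read and overlaps both motifs above. It was present in Enkur, 1110017D15Rik, Tekt2, Hydin, Dynlrb2 and Cfap44, which are 6 of 32 (18.75%, against 1.12%). The forkhead element GTAAACA was present in Mlf1, Ak7 and Cfap43, 3 of 32 (9.38%, against 4.05%), all of them among the 15. A match describes letters in the window and is no evidence of binding.

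Of the 5 radial spoke genes, 3 rose in Intermediate over Dorsal (15.9% of all tested genes) and 3 in Intermediate over Ventral pieces (23.4% of all). Rsph4a, a spoke head protein, had 6.54, 6.75 and 6.51 in Intermediate, 6.12 on each Ventral array and 5.44, 5.19 and 5.69 in Dorsal pieces, without overlap. It was 2.23-fold higher in Intermediate than Dorsal pieces (1.16 ± 0.14, adjusted p = 0.00543) and higher in Ventral than in Dorsal (0.68 ± 0.14, adjusted p = 0.0143) and in Intermediate than in Ventral (0.48 ± 0.14, adjusted p = 0.047). All 3 of these calls were lost without animal 1 (adjusted p = 0.0866, 0.134 and 0.229), and the last in 11 of the 21 alternative settings that gave a value. Rsph1, another head protein, had 4.62, 5.03 and 5.21 in Intermediate, 4.39 on each Ventral array and 4.18, 3.66 and 4.18 in Dorsal pieces. Its 1.93-fold higher level in Intermediate than in Dorsal passed the test (0.95 ± 0.20, adjusted p = 0.0233), and that call was lost in 10 of 21 alternatives, among them each one without a whole animal (adjusted p up to 0.189).

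Ak7, an adenylate kinase of motile cilia that is grouped here with the spokes, had 5.92, 5.76 and 5.99 in Intermediate, 5.03, 5.03 and 4.99 in Ventral, and 3.39, 3.25 and 3.39 in Dorsal pieces. Ak7 was 5.83-fold higher in Intermediate than Dorsal pieces (2.54 ± 0.05, adjusted p = 0.000169), 3.18-fold higher in Ventral than in Dorsal (1.67 ± 0.05, adjusted p = 5.28e-05) and 1.83-fold higher in Intermediate than in Ventral (0.87 ± 0.05, adjusted p = 0.000394). These 3 calls held in every alternative that gave a value.

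Rsph9, also a spoke head protein, was the only 1 of the 35 called lower in Ventral than in Dorsal. It had 7.02, 7.17 and 7.16 in Intermediate, 5.45, 5.33 and 5.07 in Ventral, and 6.98, 7.58 and 7.20 in Dorsal pieces. The Ventral values lay below all others, while Intermediate and Dorsal overlapped. Rsph9 was 3.57-fold higher in Intermediate than in Ventral (1.83 ± 0.16, adjusted p = 0.000923) and lower in Ventral than in Dorsal (-1.97 ± 0.16, adjusted p = 0.000548), and Intermediate minus Dorsal was -0.14 ± 0.16 (adjusted p = 0.605). It was the only one of the 35 called lowest in Ventral, a pattern of 17.9% of all tested genes. Mrps18a, a mitochondrial ribosome gene whose locus overlaps that of Rsph9 in the GRCm38.p6 gene table, differed by 0.01 between Intermediate and Ventral (adjusted p = 0.873) and by 0.29 between Intermediate and Dorsal (adjusted p = 0.0469). Nme5, a spoke protein related to nucleoside diphosphate kinases, had 6.06, 6.48 and 6.06 in Intermediate, 5.93, 6.06 and 6.06 in Ventral, and 6.06, 6.28 and 6.06 in Dorsal pieces. It was called in no test.

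The 6 genes of the central apparatus gave 1 call over the 3 comparisons, a higher level in Intermediate than in Dorsal (15.9% of all tested genes). In each direction of a comparison, 14.2% to 28.2% of all tested genes were called. Hydin, Spag17 and Spef2 never passed 3 on any array, which limits what could be called. Armc3, an armadillo repeat protein, had 3.25, 2.95 and 2.81 in Intermediate, 2.81 on each Ventral array and 2.23, 2.25 and 2.60 in Dorsal pieces. Its higher level in Intermediate than in Dorsal (0.64 ± 0.16, adjusted p = 0.0379) was lost in 12 of 20 alternatives (adjusted p up to 0.234, without animal 2). Spag6l, a central pair protein, had 4.80, 4.01 and 5.11 in Intermediate, 3.28, 3.95 and 3.95 in Ventral, and 3.45, 3.95 and 3.95 in Dorsal pieces. All its Intermediate values lay above the others, but neither Intermediate minus Ventral (0.91 ± 0.32, adjusted p = 0.0731) nor Intermediate minus Dorsal (0.86 ± 0.32, adjusted p = 0.116) passed the test; without animal 2 both did (adjusted p = 0.0141 and 0.0291). Spag16, also of the central pair, had 2.46, 2.34 and 2.34 in Intermediate and 3.34, 2.26 and 3.33 in Ventral pieces and stood at the floor on all Dorsal arrays. Its differences did not pass the test (Ventral minus Dorsal 0.83 ± 0.26, adjusted p = 0.0512; 0.00482 without animal 2). Spef2, a further central apparatus protein, lay between 2.16 and 2.78 on all 9 arrays, with Ventral minus Dorsal at 0.31 ± 0.10 (adjusted p = 0.0565; 0.0051 without animal 2). Hydin, the large protein lost in a mouse model of hydrocephalus, stood at 2.17 on every array, and Spag17 stood at the floor.

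Among dynein genes, Dynlrb2 had a difference between Intermediate and Dorsal that among the 35 was exceeded by Fam216b alone. It encodes a light chain of the roadblock family that is made in ciliated cells, and had 7.65, 7.81 and 8.20 in Intermediate, 7.46, 7.30 and 7.46 in Ventral, and 3.63, 3.09 and 3.67 in Dorsal pieces. Dynlrb2 was 21.5-fold higher in Intermediate than Dorsal pieces (4.43 ± 0.16, adjusted p = 0.000307) and 15.4-fold higher in Ventral than in Dorsal (3.94 ± 0.16, adjusted p = 8.49e-05). Intermediate values lay above all Ventral values, yet that difference of 0.48 ± 0.16 did not pass the test (adjusted p = 0.0611; 0.021 without the Intermediate array of animal 1). Its paralog Dynlrb1, a light chain of cytoplasmic dynein in most cells, differed by 0.13 between Intermediate and Dorsal (adjusted p = 0.162) and by 0.21 between Intermediate and Ventral (adjusted p = 0.0335). Dnali1, a light intermediate chain of inner arms, was at the floor except for 2.21 in the Intermediate piece of animal 3, and Zmynd10, which helps to assemble dynein arms, was at the floor throughout.

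The rulers, regulatory complexes and tethers gave small or uncertain differences. Ccdc39 and Ccdc40 form the molecular ruler that sets the spacing of dyneins and spokes. Ccdc39 had 9.34, 9.57 and 9.18 in Intermediate, 9.03, 9.03 and 8.75 in Ventral, and 9.44, 9.12 and 9.05 in Dorsal pieces. Its Intermediate values lay above the Ventral ones and overlapped the Dorsal ones. The difference of Ccdc39 between Intermediate and Ventral passed the test (0.43 ± 0.11, adjusted p = 0.0269), but the call was lost in 11 of 22 alternatives, and a second probe set gave means of 5.35 in Intermediate, 5.06 in Ventral and 5.50 in Dorsal pieces. The locus of Ccdc39 overlaps that of Ttc14 in the gene table, and Ttc14 itself was 0.25 higher in Intermediate than in Ventral (adjusted p = 0.0151). Ccdc40 had 2.52, 2.63 and 2.47 in Intermediate and 2.34 on all Ventral and Dorsal arrays. That is 0.20 ± 0.04 over either region (adjusted p = 0.0093 over Ventral and 0.0161 over Dorsal), lost without animal 1 with an adjusted p of 0.0972 and 0.139.

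Cfap43, a protein that tethers dynein heads, had 3.18, 2.64 and 3.47 in Intermediate and 2.64, 2.62 and 2.62 in Ventral pieces, and stood at the floor on all Dorsal arrays. It was at least 1.93-fold higher in Intermediate than Dorsal pieces (0.95 ± 0.18, adjusted p = 0.0191), lost without animal 1 (adjusted p = 0.181) and in 6 of 20 alternatives. Drc1, of the nexin-dynein regulatory complex, had 2.46, 2.73 and 2.46 in Intermediate, 2.43, 2.45 and 2.48 in Ventral, and 2.46 on each Dorsal array, and was called in no test. Iqcg, of the same complex, was at the floor except for 2.20 in the Intermediate piece of animal 1. Ccdc113 was at the floor on all arrays.

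Of the 6 genes for proteins inside the doublet wall, 4 rose in Intermediate over Dorsal (15.9% of all tested genes) and 3 in Intermediate over Ventral pieces (23.4% of all). Enkur, which encodes enkurin, had 6.50, 6.76 and 6.31 in Intermediate, 5.80, 5.69 and 5.74 in Ventral, and 3.03, 3.75 and 3.36 in Dorsal pieces. It was 8.83-fold higher in Intermediate than Dorsal pieces (3.14 ± 0.17, adjusted p = 0.000675), 5.14-fold higher in Ventral than in Dorsal (2.36 ± 0.17, adjusted p = 0.000382) and 1.72-fold higher in Intermediate than in Ventral (0.78 ± 0.17, adjusted p = 0.0173). The last call was lost without any 1 of the 3 animals (adjusted p up to 0.109). Cfap126, also called Flattop and known for positioning basal bodies, had 6.13, 6.22 and 6.56 in Intermediate, 5.94, 5.94 and 5.96 in Ventral, and 5.10, 5.10 and 5.26 in Dorsal pieces. It was 2.22-fold higher in Intermediate than Dorsal pieces (1.15 ± 0.08, adjusted p = 0.0012), 1.74-fold higher in Ventral than in Dorsal (0.80 ± 0.08, adjusted p = 0.00116) and 1.28-fold higher in Intermediate than in Ventral (0.35 ± 0.08, adjusted p = 0.0208), the last lost without animal 1 or animal 2 (adjusted p up to 0.126).

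1110017D15Rik had 4.91, 5.03 and 5.76 in Intermediate, 4.18, 4.11 and 4.17 in Ventral, and 3.17, 3.81 and 4.17 in Dorsal pieces. Intermediate stood above both others, and Ventral and Dorsal overlapped. Its level was 2.86-fold higher in Intermediate than Dorsal pieces (1.52 ± 0.23, adjusted p = 0.00895) and 2.11-fold higher in Intermediate than in Ventral (1.08 ± 0.23, adjusted p = 0.0148), while Ventral minus Dorsal was 0.44 ± 0.23 (adjusted p = 0.174). The call over Dorsal was lost without any 1 of the 3 animals (adjusted p up to 0.081) and the call over Ventral without animal 2 or animal 3 (up to 0.104). Tekt1, a tektin filament protein, had 3.42, 3.57 and 3.62 in Intermediate, 3.39, 3.34 and 3.39 in Ventral, and 3.29, 3.23 and 3.28 in Dorsal pieces, and its small difference between Intermediate and Dorsal was called (0.27 ± 0.05, adjusted p = 0.0205) and lost in 7 of 21 alternatives (adjusted p up to 0.193, without animal 3). Tekt2, a second tektin, stood at 2.16 on every Intermediate and Ventral array and had 2.16, 2.59 and 2.57 in Dorsal pieces, and Intermediate minus Dorsal was -0.28 ± 0.11 (adjusted p = 0.119; 0.0159 without animal 1). Cfap52 had 2.97, 2.20 and 2.42 in Intermediate and 2.20, 2.20 and 2.27 in Ventral pieces and stood at the floor in Dorsal, and was called in no test.

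Both secreted proteins rose in Intermediate over Dorsal pieces, as did 15.9% of all tested genes. Mia, a small secreted protein known from melanoma and cartilage, had 8.15, 8.56 and 8.53 in Intermediate, 7.96, 8.01 and 7.68 in Ventral, and 7.52, 7.36 and 7.63 in Dorsal pieces. Its regions did not overlap, and it was 1.88-fold higher in Intermediate than Dorsal pieces (0.91 ± 0.16, adjusted p = 0.0151), a call lost without any 1 of the 3 animals (adjusted p up to 0.123). Intermediate minus Ventral was 0.53 ± 0.16 and missed the threshold (adjusted p = 0.051; 0.0366 without the Intermediate array of animal 1). Rarres2, which encodes the chemoattractant chemerin, had 7.05, 7.20 and 6.92 in Intermediate, 7.30, 7.28 and 7.21 in Ventral, and 6.80, 6.24 and 6.31 in Dorsal pieces. Every Ventral value of Rarres2 lay above every Intermediate and Dorsal value, though Intermediate minus Ventral was -0.21 ± 0.14 and not called (adjusted p = 0.311). It was higher in Ventral than in Dorsal (0.82 ± 0.14, adjusted p = 0.00735; 0.107 without animal 3) and in Intermediate than in Dorsal (0.61 ± 0.14, adjusted p = 0.0346), the call over Dorsal in Intermediate being lost in 13 of 22 alternatives (adjusted p up to 0.24).

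Fam216b, a gene of little known function that marks ependymal cells, had the largest difference of all the listed genes. It had 8.30, 8.35 and 8.49 in Intermediate, 7.98, 7.75 and 7.86 in Ventral, and 2.89, 2.96 and 2.53 in Dorsal pieces. Fam216b was 48-fold higher in Intermediate than Dorsal pieces (5.58 ± 0.14, adjusted p = 0.000169) and 33.5-fold higher in Ventral than in Dorsal (5.07 ± 0.14, adjusted p = 4.28e-05). All its Dorsal values lay under 3, near the floor of 2.15, so the size of these folds is uncertain. Between Intermediate and Ventral the difference was far smaller (0.52 ± 0.14, adjusted p = 0.0339) and was lost in 11 of 22 alternatives (adjusted p up to 0.15, without animal 2). Ccdc153, another ependymal marker, had 5.01, 5.52 and 5.75 in Intermediate, 4.73 on each Ventral array and 2.15, 2.15 and 3.34 in Dorsal pieces. With 2 of 3 Dorsal arrays at the floor, its folds over Dorsal are lower bounds. It was at least 7.36-fold higher in Intermediate than Dorsal pieces (2.88 ± 0.28, adjusted p = 0.00269; 0.0521 without animal 1) and at least 4.53-fold higher in Ventral than in Dorsal (2.18 ± 0.28, adjusted p = 0.00248), and Intermediate minus Ventral was 0.70 ± 0.28 (adjusted p = 0.104).

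Tmem212, a membrane protein of ciliated cells, overlapped between Intermediate and Ventral and was lower in Dorsal. It had 5.38, 5.36 and 5.69 in Intermediate, 5.36, 5.36 and 5.63 in Ventral, and 3.80, 3.78 and 4.27 in Dorsal pieces. Tmem212 was 2.88-fold higher in Intermediate than Dorsal pieces (1.52 ± 0.05, adjusted p = 0.000232) and 2.83-fold higher in Ventral than in Dorsal (1.50 ± 0.05, adjusted p = 5.41e-05). Mlf1, first known from a leukaemia translocation and abundant in ciliated tissues, had 7.59, 7.53 and 7.55 in Intermediate, 6.99 on each Ventral array and 5.98, 5.28 and 5.68 in Dorsal pieces. It was 3.76-fold higher in Intermediate than Dorsal pieces (1.91 ± 0.15, adjusted p = 0.00144; 0.0543 without animal 3), 2.53-fold higher in Ventral than in Dorsal (1.34 ± 0.15, adjusted p = 0.00143) and 1.48-fold higher in Intermediate than in Ventral (0.57 ± 0.15, adjusted p = 0.0296; 0.206 without animal 3). Stk33, a kinase needed for sperm flagella, stood at 2.16 on every array.

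Other genes of the same organelle were described beside the 38. Other axonemal genes were listed by 76 symbols, in some cases 2 for the same gene. Of these symbols, 60 were on the array, 15 of those stood at the floor on all arrays and 48 were tested. In Intermediate over Dorsal, 10 were called higher and 3 lower (median 0.08; 15.9% and 14.2% of all tested genes), and in Intermediate over Ventral 8 higher and 5 lower (median 0.06; 23.4% and 24.9% of all). Fam183b and Pifo rose in Intermediate over Dorsal (at least 2.16, with 2 of 3 Dorsal arrays of Fam183b at the floor, adjusted p = 0.00244, and 1.38, adjusted p = 0.0151), while Dnah7a, an inner arm heavy chain, fell (-1.66, adjusted p = 0.00073). Dnaic1, an outer arm chain, was lower in Intermediate than in Ventral (-1.40, adjusted p = 0.000617), and Cfap54, of the central apparatus, was higher (1.23, adjusted p = 0.000571). Of 15 tested genes of dynein assembly and docking, 2 were higher in Intermediate than in Ventral (Spag1 and Lrrc6; 23.4% of all tested genes). In Intermediate over Dorsal, 1 was higher (Spag1, 0.60, adjusted p = 0.00516; 15.9% of all). Of 11 regulators of multiciliogenesis, 4 were lower in Intermediate than in Ventral (24.9% of all tested genes) and 0 higher (23.4% of all). Among the 4 were Stil (-0.82, adjusted p = 0.00414), E2f5 (-0.52, adjusted p = 0.00116) and Plk4 (-0.49, adjusted p = 0.00168). In Intermediate over Dorsal, 1 of the 11 was higher and 1 lower (15.9% and 14.2% of all). Foxn4, Trp73 and E2f4 of this list stood at the floor on all 9 arrays and were not tested. Ccno stood at the floor on 8 arrays and Deup1 at 2.16 on every array. The counts therefore say little about these genes.

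Genes of intraflagellar transport and the primary cilium, which nearly all cells carry, were counted in the same way. Of 44 tested, 19 rose and 3 fell in Intermediate over Ventral (median 0.21; 23.4% of all tested genes rose and 24.9% fell), with Bbs5 (1.13, adjusted p = 0.000358), Bbs4 (0.98, adjusted p = 0.000927) and Tctn3 (0.82, adjusted p = 0.00124) in front. In Intermediate over Dorsal 2 were higher and 4 lower (median -0.03; 15.9% of all rose and 14.2% fell). Among 10 tested paralogs with roles outside motile cilia, 2 rose and 2 fell in Intermediate over Dorsal (15.9% and 14.2% of all tested genes). Rfx5 and Rfx1 were lower (-0.56, adjusted p = 0.00145, and -0.49, adjusted p = 0.00585), Ak1 and Nme2 were higher (0.37, adjusted p = 0.00562, and 0.14, adjusted p = 0.0241), and Foxj2, Foxj3, Rfx7, Dynlrb1, Nme1 and Mlf2 were not called. In Intermediate over Ventral, Foxj3 (0.75), Rfx1 (0.66), Rfx5 (0.47), Ak1 (0.34), Rfx7 (0.31) and Dynlrb1 (0.21) were higher and Mlf2 (-0.27) was lower.

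**Figure D3:**
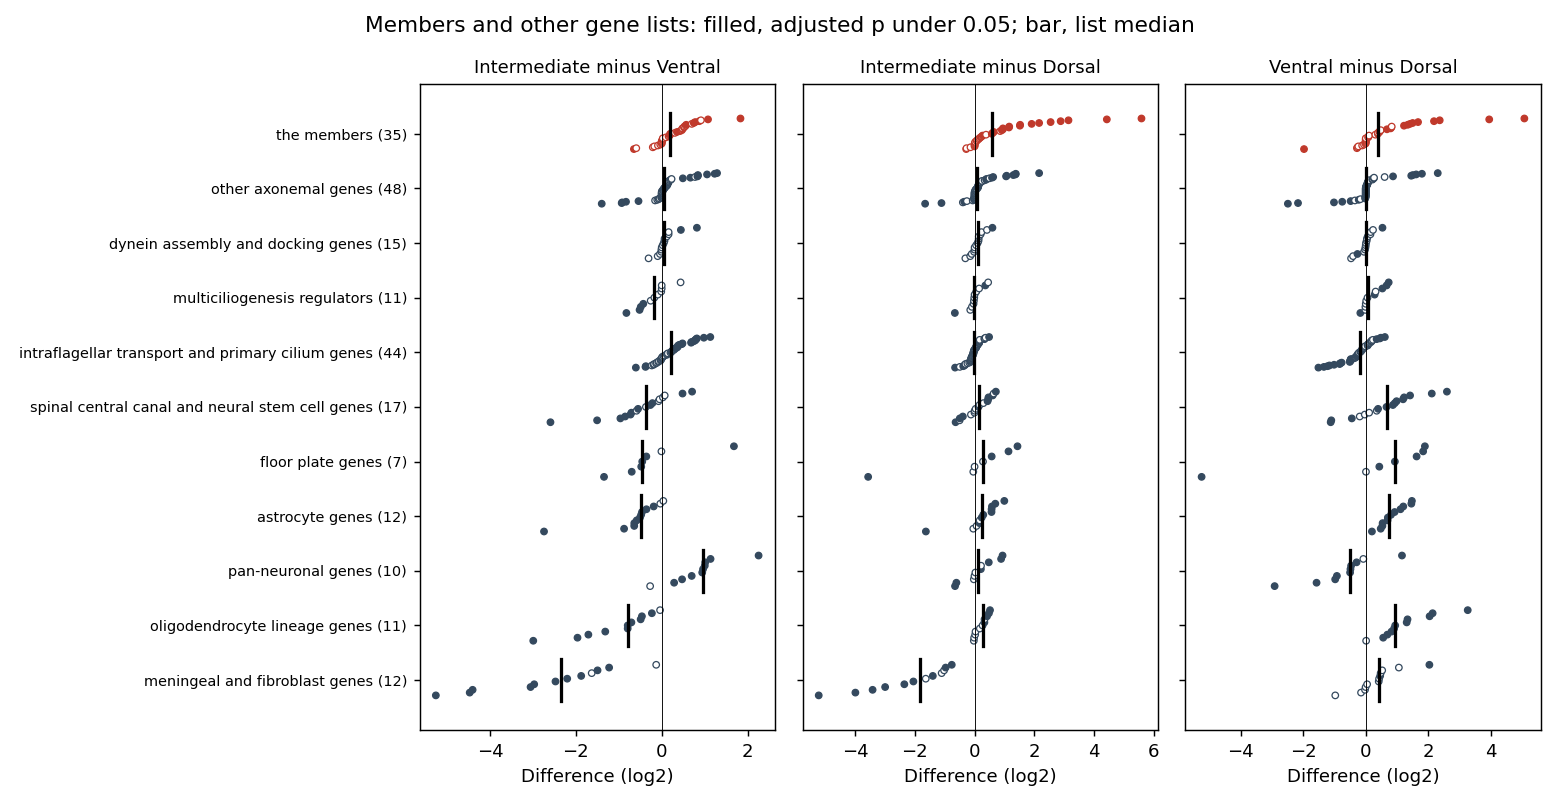
Differences between regions on the log2 scale (horizontal axes, which differ between panels) for the listed ependymal and motile cilia genes (red) and other gene lists (dark blue), 1 point per tested gene with the number tested in brackets; filled points have an adjusted p under 0.05 and the bar is the list median. The listed genes have a median of 0.57 in Intermediate minus Dorsal, against 0.08 for other axonemal genes, and meningeal and fibroblast genes have a median of -1.84.

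Markers of other cell types differed between the pieces, and their part in the results above was not tested. The counts in this paragraph and the next stand against these shares of all tested genes. In Intermediate over Dorsal 15.9% rose and 14.2% fell, and in Intermediate over Ventral 23.4% rose and 24.9% fell. Of 17 genes of the central canal zone and neural stem cells, 6 rose and 3 fell in Intermediate over Dorsal, and 2 rose and 9 fell in Intermediate over Ventral; Prom1, a membrane protein of ciliated and stem cells, was highest in Ventral (-1.50 for Intermediate minus Ventral, adjusted p = 0.000625). Of 7 floor plate genes, 3 rose and 1 fell in Intermediate over Dorsal, with Shh at 1.44 or more (1 of 3 Dorsal arrays at the floor, adjusted p = 0.00184). In Intermediate over Ventral, 1 of the 7 rose and 5 fell. Foxa1 and Foxa2 were at the floor throughout. Of 6 roof plate genes, 1 rose and 1 fell in Intermediate over Dorsal (Msx1, 1.79, adjusted p = 0.00252, and Gdf10, -0.58, adjusted p = 0.00207), and Lmx1a and Wnt1 were at the floor. Of 4 tested genes of cerebrospinal fluid-contacting neurons, 1 was lower in Intermediate than in Ventral (Pkd2l1, -0.65, adjusted p = 0.000486) and 1 lower in Intermediate than in Dorsal (Sst, -2.51, adjusted p = 0.000762). Choroid plexus epithelium also carries motile cilia: 6 of its 9 genes, Ttr, Folr1, Kcnj13, Otx2, Aqp1 and Kcne2, stood at the floor on all 9 arrays. The same held for 9 of 11 sperm genes. Of 3 tested choroid plexus genes, 0 rose and 1 fell in Intermediate over Dorsal, and 0 were called in Intermediate over Ventral. In Ventral over Dorsal, 2 of the 3 fell (24.5% of all). Summed linear levels of the choroid list were 225 to 236 in Intermediate, 124 to 195 in Ventral and 234 to 926 in Dorsal. Of 4 tested sperm genes, 2 rose and 0 fell in Intermediate over Ventral, and 1 rose and 0 fell in Intermediate over Dorsal. In Ventral over Dorsal, 1 of the 4 fell.

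Astrocyte genes, some of which ependymal cells share, had a summed linear level of 152537 to 162640 in Intermediate, 192629 to 197718 in Ventral and 124241 to 137629 in Dorsal pieces, with 8 of 12 up and 1 down in Intermediate over Dorsal. The sum over 10 pan-neuronal genes was 101486 to 107420 in Intermediate, 71773.7 to 73588.3 in Ventral and 87002.3 to 98187.6 in Dorsal pieces, so that sum was lowest in Ventral. Over 12 meningeal and fibroblast genes the sum was 3314.51 to 5063.04 in Intermediate, 17961.5 to 24668.6 in Ventral and 13335.8 to 28639.8 in Dorsal pieces, and 10 of the 12 were lower in Intermediate than in Ventral and 9 lower than in Dorsal. Schwann cell genes were likewise lower in Intermediate, 4 of 6 in either comparison. Oligodendrocyte lineage genes (102442 to 117977 in Intermediate, 157260 to 164852 in Ventral and 101371 to 108800 in Dorsal), microglia genes (3804.09 to 4332.98 in Intermediate, 6790.37 to 7328.34 in Ventral and 5282.39 to 6357.22 in Dorsal) and endothelial and mural genes (8063.37 to 8883.77 in Intermediate, 13242.3 to 13980.4 in Ventral and 6009.33 to 7322.88 in Dorsal) were all highest in Ventral pieces. None of these sums was highest in Intermediate except the neuronal one. A sum on the linear scale is weighted towards the brightest genes of its list.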

How the data were processed

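Total RNA (500 ng per sample, per the labels) was turned into biotinylated cRNA with Affymetrix reagents and hybridised, 1 array per piece. The deposited values span 2.15 to 16.3 and were read as log2, on which all folds depend. Neither this scale nor the authors' summarising, normalising and flooring of the signals is stated by the labels. GEO's platform annotation named the probe sets: of 45037, 34945 had 1 symbol, 932 several and 9160 none, and only the first kind was used. Of these, 34741 matched a RefSeq gene listing by Entrez number, which changed 0 symbols. Each gene was read from its single-symbol probe set with the highest mean, and dropped if that mean fell under 2.14606, the 30th percentile over probe sets. Between 36.0% and 36.3% of probe sets of an array were within 0.01 of the floor. Medians of the arrays lay between 3.66 and 3.75. The number of arrays limits the precision.

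A linear model with region and animal was fitted to all 9 arrays with limma 3.58.1 in R 4.3.3 (data.table version 1.17.8) and moderated with eBayes (4 residual and 0.749 prior degrees of freedom), so regions shared 1 estimate of the spread; tests were two-sided, and values after ± are standard errors. Ties were taken at a tolerance of 1e-06. The pairing comes from the animal number in the titles: after subtracting region means, arrays of the same animal correlated at -0.066 to 0.246 (9 pairs) and those of different animals at -0.18 to 0.161 (18 pairs). Arrays correlated at 0.998 or more within regions and at 0.995 or less between them, and 0 pairs were identical. Motifs and promoters were read with Python 3.11.15 and pandas 2.3.3, and figures drawn with matplotlib 3.10.9; RefSeq promoters of Foxj1, Rsph1, Rsph4a, Nme5, Stk33 and Rarres2 were not analysed here.

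The genes, the other lists and the tests were chosen with earlier results of these data known. Values per array were to be given for the 12 genes with the largest difference between Intermediate and Dorsal, the transcription factors, the secreted proteins and those lower in Intermediate or never called. From each other list the rule names up to 3 called genes with the largest difference from Dorsal and 3 with the largest from Ventral; for lists of other cell types, counts and summed levels stand in place of most of them. It also names all paralogs and the 10 genes nearest to Foxj1. The alternatives were the fit without the block, a trended robust prior, median centring, quantile normalisation, no filter, a filter at the 50th percentile, the most variable probe set, the mean over probe sets, genes with 9 distinct values, the 6 arrays compared alone, and leaving out each animal or array.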

Additional observations from a re-analysis of the deposited data

How the results depend on the processing

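Under the 22 alternatives, 7 of 19 calls in Intermediate over Dorsal (Ak7, Cfap126, Dynlrb2, Enkur, Fam216b, Foxj1 and Tmem212), 2 of 12 between Intermediate and Ventral (Ak7 and Rsph9) and 11 of 13 between Ventral and Dorsal held wherever a value was given, and 0 calls reversed. Of the differences that were not called, Ccdc39 in Intermediate minus Dorsal became -0.15 with its most variable probe set, and Rsph9 in the same comparison lay between -0.29, without the Dorsal array of animal 1, and 0.0016, without the Dorsal array of animal 2; the cause was not tested. The fit without the replicate block, which ignores the pairing by animal, gave 19 listed genes higher in Intermediate than in Dorsal, 14 higher in Intermediate than in Ventral and 15 higher in Ventral than in Dorsal, against 2339, 3316 and 4045 of all tested genes in the same comparisons.

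With the 6 arrays of Intermediate and Dorsal fitted alone, with fewer residual degrees of freedom, 11 listed genes and 1103 of all genes were higher and 1002 of all were lower. Among the 12 listed genes with 9 distinct values, all 12 changed in some region (5979 of the 6713 genes of this kind did). Of these 12, 3 were lower in Ventral than in Dorsal (2480 of the 6713 were). In Intermediate over Dorsal 9 rose and 1 fell, 1 was highest in Dorsal and 2 were lowest in Ventral. For these last counts the shares of the 6713 are not given here. The medians were 0.76 (Intermediate minus Dorsal), 0.45 (Intermediate minus Ventral) and 0.81 (Ventral minus Dorsal). The filter at the 50th percentile left 20 listed genes, with medians of 1.15, 0.52 and 0.81 in the same comparisons and 2 lower in Ventral than in Dorsal. The mean over probe sets gave medians of 0.29 (Intermediate minus Dorsal) and 0.16 (Ventral minus Dorsal). With the most variable probe set, 2 genes were lower in Intermediate than in Ventral and 2 highest in Ventral. The matching counts over all genes are not given here for that setting or for the filter at the 50th percentile. The median for Intermediate minus Dorsal was 0.38 with no filter (37 genes) and 0.65 with arrays centred on their medians. That centring called 3222 of all genes up and 1540 down in Intermediate minus Dorsal, against 2219 up and 1983 down without it. With it, 16 listed genes and 3508 of all genes were higher in Intermediate than in Ventral.

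Leaving out 1 animal or array moved the counts of listed genes as follows: changed in any region 13 to 20, higher in Intermediate than in Dorsal 9 to 17 and lower 0 to 1, higher in Intermediate than in Ventral 4 to 13 and lower 0 to 3, lower in Ventral than in Dorsal 1 to 2, highest in Intermediate 2 to 9, highest in Ventral 0 to 3, lowest in Ventral 1 to 2 and highest in Dorsal 0 to 1. Over all genes it gave 5046 to 7633 changed in any region, 765 to 2057 higher and 699 to 1719 lower in Intermediate than in Dorsal, and 2016 to 3261 higher and 2184 to 3397 lower in Intermediate than in Ventral. Of all genes, 2459 to 3315 were lower in Ventral than in Dorsal in these fits. For genes highest or lowest in 1 region, the counts over all genes are not given here. The listed genes' medians ran from 0.45 to 0.61 for Intermediate minus Dorsal, from 0.20 to 0.28 for Intermediate minus Ventral and from 0.24 to 0.48 for Ventral minus Dorsal. Genes near the floor limit what these arrays can show, since a difference there has only a bound.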

Other observations

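The genes whose profile over the 9 arrays lay nearest to that of Foxj1 were mostly no genes of cilia. Among 2266 tested genes whose region means spanned at least 1 on the log2 scale, likeness was taken as the Euclidean distance between profiles centred on their own means. The nearest was Hoxc10, a homeobox gene of the caudal spinal cord, at 0.618, followed by Epha4, an axon guidance receptor, at 0.625 and the transcription factor Zfhx3 at 0.633. Hoxc10 averaged 11.2 in Intermediate, 10.2 in Ventral and 8.97 in Dorsal pieces. Then came 1110032F04Rik, the neuropeptide Y receptor gene Npy2r, Mast4, the cadherin gene Cdh9, Chchd10, Msx1 and A2ml1, the last at 0.854. Of the listed genes, Ak7 ranked at place 5 (0.709), Mlf1 at 7 (0.77), Tmem212 at 31 and Cfap126 at 57. Enkur, with the same order of regions, ranked at 105, and Dynlrb2 and Fam216b, whose differences from Dorsal were larger, ranked at 1189 and 2015, since the distance counts size as well as order.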
